A study of Homo sapiens with 12 samples.

Results

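The proteasome genes described here are the 48 genes of the deposited human count table whose names run PSMA, PSMB, PSMC, PSMD, PSME, PSMF or PSMG followed by a number, out of 52859 genes in all. They were taken by name alone, and pseudogenes and antisense genes fall outside the set. Their RNA was measured by sequencing in MDA-MB-231, an established line of human breast carcinoma cells, after transfection of a locked nucleic acid (LNA), a stabilised oligonucleotide that binds a complementary RNA. The groups were mtAsn-1 and mtAsn-2, which are a pair of LNAs named for the mitochondrial asparagine tRNA, mtLys, named for the mitochondrial lysine tRNA, and a control LNA. Each group had 3 libraries, all received 20 nM of LNA with the same lipid reagent, and all were collected on day 2. The series is limited to 1 cell line, and nothing in the labels tells whether a group's libraries stem from separate cultures. The spread that p-values rest on may therefore be technical.

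The proteasome is the barrel-shaped protease that degrades proteins tagged with ubiquitin. Its 20S core is a stack of outer alpha rings (PSMA genes), which gate the channel, and inner beta rings (PSMB genes), which hold the catalytic sites. The 19S cap binds, unfolds and feeds substrates through a ring of ATPases (PSMC genes) and the non-ATPase subunits (PSMD genes), while PSME genes encode alternative activators, PSMF1 an inhibitor and PSMG genes chaperones of core assembly. In cells exposed to interferon the catalytic subunits PSMB5, PSMB6 and PSMB7 can be replaced by PSMB8, PSMB9 and PSMB10, which gives the immunoproteasome known for making peptides for antigen presentation. When proteasome activity falls short, the transcription factor NFE2L1 is known to raise subunit genes together.

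Libraries held 17978825 to 37708993 counts, and the 48 genes took 0.569% to 0.666% of them. Of the 6 genes fixed as marks of this cell line, 6 were above 1 CPM (counts scaled to the library total) in every library. Of 6 genes chosen as low or absent in it, 4 (ESR1, PGR, CDH1 and FOXA1) were below 1 CPM in every library. The other 2, EPCAM and GATA3, were above 1 CPM in every library, with group means of 4.08 to 5.89 CPM and 11.2 to 13.4 CPM. Leukocyte markers summed to 3.09 to 5.62 CPM across libraries, with 5 of 7 below 1 CPM throughout. The sum of 3 endothelial markers was 14.98 to 18.1 CPM with mtAsn-1, 10.1 to 11.6 with mtAsn-2, 16.5 to 18.5 with mtLys and 10.9 to 13.1 in control, nearly all of it 1 gene that stayed above 1 CPM. The sum of 3 fibroblast markers was 7.77 to 8.87 CPM with mtAsn-1, 6.87 to 8.13 with mtAsn-2, 8.60 to 8.93 with mtLys and 9.33 to 12.2 in control. The part of these markers in the results below was not tested. Of the tRNA genes the LNAs are named for, the asparagine tRNA gene had 2 to 5 counts with mtAsn-1, 1 to 3 with mtAsn-2, 1 to 5 with mtLys and 2 to 6 in control. The lysine tRNA gene had 126 to 269 counts with mtAsn-1, 217 to 325 with mtAsn-2, 198 to 283 with mtLys and 111 to 182 in control, before any correction for depth, so neither gene checks the labels.

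Of the 48 genes, 41 passed the filter on low counts and were tested with edgeR's quasi-likelihood test, with p-values adjusted by the Benjamini-Hochberg method over 16051 genes. The other 7 were PSMB8, PSMB9, PSMB3, PSMC4, PSME1, PSMB11 and PSMA8. Of these, 5 (PSMB8, PSMB9, PSMB3, PSMC4 and PSME1) also have at least 1 copy of the gene listed separately on an alternate locus of the genome build, with 7 such copies each for PSMB8 and PSMB9. They had at most 1 count in any library. PSMB3 and PSMC4 are constitutive subunits that every working proteasome needs, so these genes are listed at or near 0 and their absence from the cells cannot be read from the table. Among all protein-coding genes, 62.3% of the 1211 with a copy on an alternate locus had at most 1 count in every library, against 18.4% of the 17735 without one. How reads that fit both copies were counted was not tested. The alternate copies themselves held few reads, at most 8 counts for a PSMB9 copy and 4 for a PSMB8 copy. PSME2, which forms the PA28 activator with PSME1, has 1 alternate copy and had only 11 to 29 counts, so its values are uncertain. The last 2, PSMB11, the catalytic subunit of the thymus, and PSMA8, the alpha subunit of male germ cells, have no such copy. PSMB11 had at most 1 count, and PSMA8 had 0 in every library, which allows up to 0.0796 to 0.167 CPM depending on the library, for counting error only.

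In control libraries the 40 tested genes without an alternate copy covered a wide range of levels per kilobase of exon. Among alpha subunits the level ran from 34.1 CPM per kilobase for PSMA4 to 407 for PSMA7, the highest of the set. Among beta subunits it ran from 44.8 for PSMB2 to 287 for PSMB4, with a median of 131 CPM per kilobase. PSMB10, the only immunoproteasome subunit that could be read, stood lower at 29.2 CPM per kilobase. The ATPases ran from 7.95 for PSMC1 to 125 for PSMC3, and the non-ATPase cap subunits from 19.8 for PSMD12 to 227 for PSMD2. The assembly chaperone PSMG4 was lowest at 2.04 CPM per kilobase. Length here is that of all annotated exons joined, so long exons that few transcripts use lower a level.

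**Figure D1:**
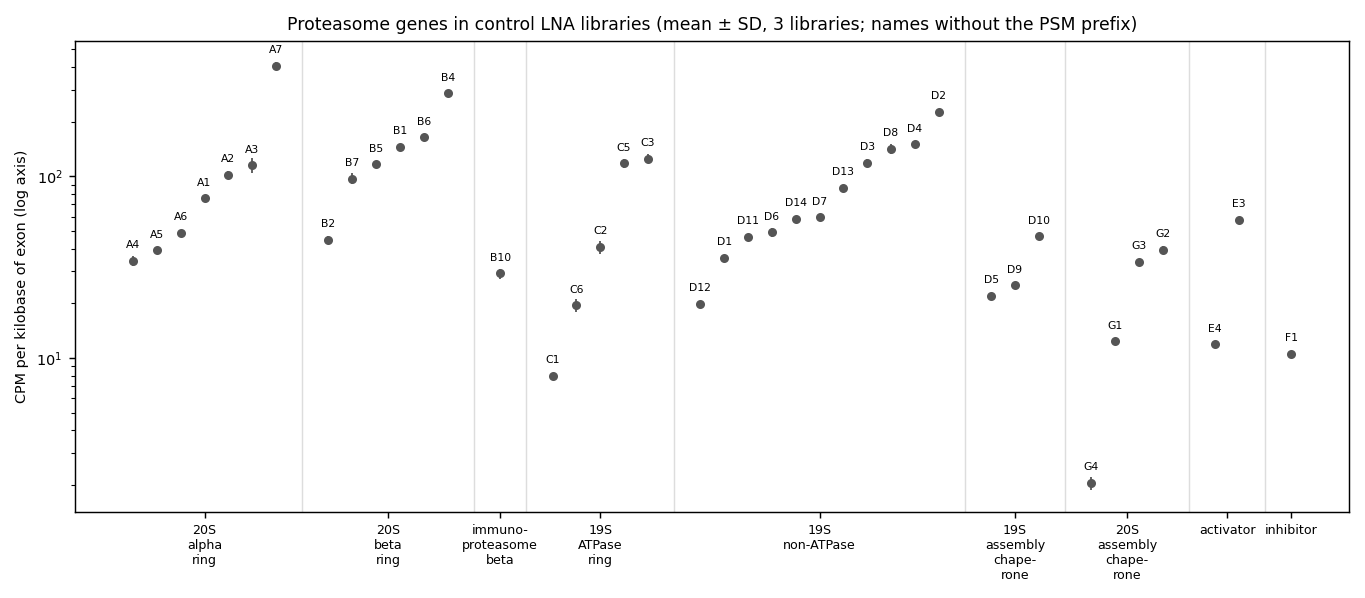
Level of each tested proteasome gene in the 3 control LNA libraries, in CPM per kilobase of exon on a log axis, grouped by the role of the subunit; points are means and whiskers SD. PSMA7 is highest at 407 and PSMG4 lowest at 2.04, and PSMB10 at 29.2 lies below every constitutive beta subunit shown.

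Summed over these 40 genes, proteasome RNA in TMM-scaled CPM differed little between groups. The sum was 6079 ± 79.8 CPM with mtAsn-1, 6223 ± 143 with mtAsn-2, 6054 ± 85.8 with mtLys and 5961 ± 216 in control (SD, n = 3 each). By library, the sum was 5987 to 6130 CPM with mtAsn-1, 6113 to 6385 with mtAsn-2 and 5964 to 6135 with mtLys, and each of these ranges overlapped the 5754 to 6184 CPM of the control libraries. The overlap depends on the TMM factors, 1.04 to 1.05 with mtAsn-2 and 0.974 to 0.994 in the other groups. A larger factor lowers CPM, so as a plain share of the library total mtAsn-2 stands higher against control than these sums show. The alpha ring summed to 1274 ± 16.2 CPM with mtAsn-1, 1340 ± 38.7 with mtAsn-2, 1265 ± 20.8 with mtLys and 1253 ± 54.1 in control. The beta ring summed to 1031 ± 14.6 CPM with mtAsn-1, 1029 ± 16.7 with mtAsn-2, 1031 ± 4.70 with mtLys and 1003 ± 34.9 in control. In bulk RNA such as this, CPM is a relative level, so the amount of proteasome RNA per cell cannot be read from it.

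Changes were small and went both ways. With mtAsn-1, 9 of the 41 tested genes were higher than in control and 8 lower, or 41.5% called, where 48.5% of all tested genes passed (24.3% higher, 24.2% lower). With mtAsn-2, 13 were higher and 7 lower, or 48.8%, against 51.1% of all genes (24.1% higher, 27% lower). With mtLys, 7 were higher and 5 lower, or 29.3%, against 48.5% of all genes (24.6% higher, 23.9% lower). These 3 comparisons share the control libraries. The first 2 shares are near those of all genes, and the mtLys share is lower. In none of the 3 comparisons was the share of proteasome genes called above that of all genes, and the difference in shares was not tested. The median size of the log2 fold change over the 40 genes was 0.09 for mtAsn-1, 0.10 for mtAsn-2 and 0.06 for mtLys. Over the 8021 genes at least as abundant as PSMG4, a yardstick chosen after the data were seen, it was 0.17, 0.18 and 0.16, and 60.7%, 63.0% and 58.7% of those genes passed. Signed medians over the 41 genes were 0.01, 0.06 and 0.00 on the log2 scale, against 0.00, -0.01 and 0.00 for all tested genes.

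**Figure D2:**
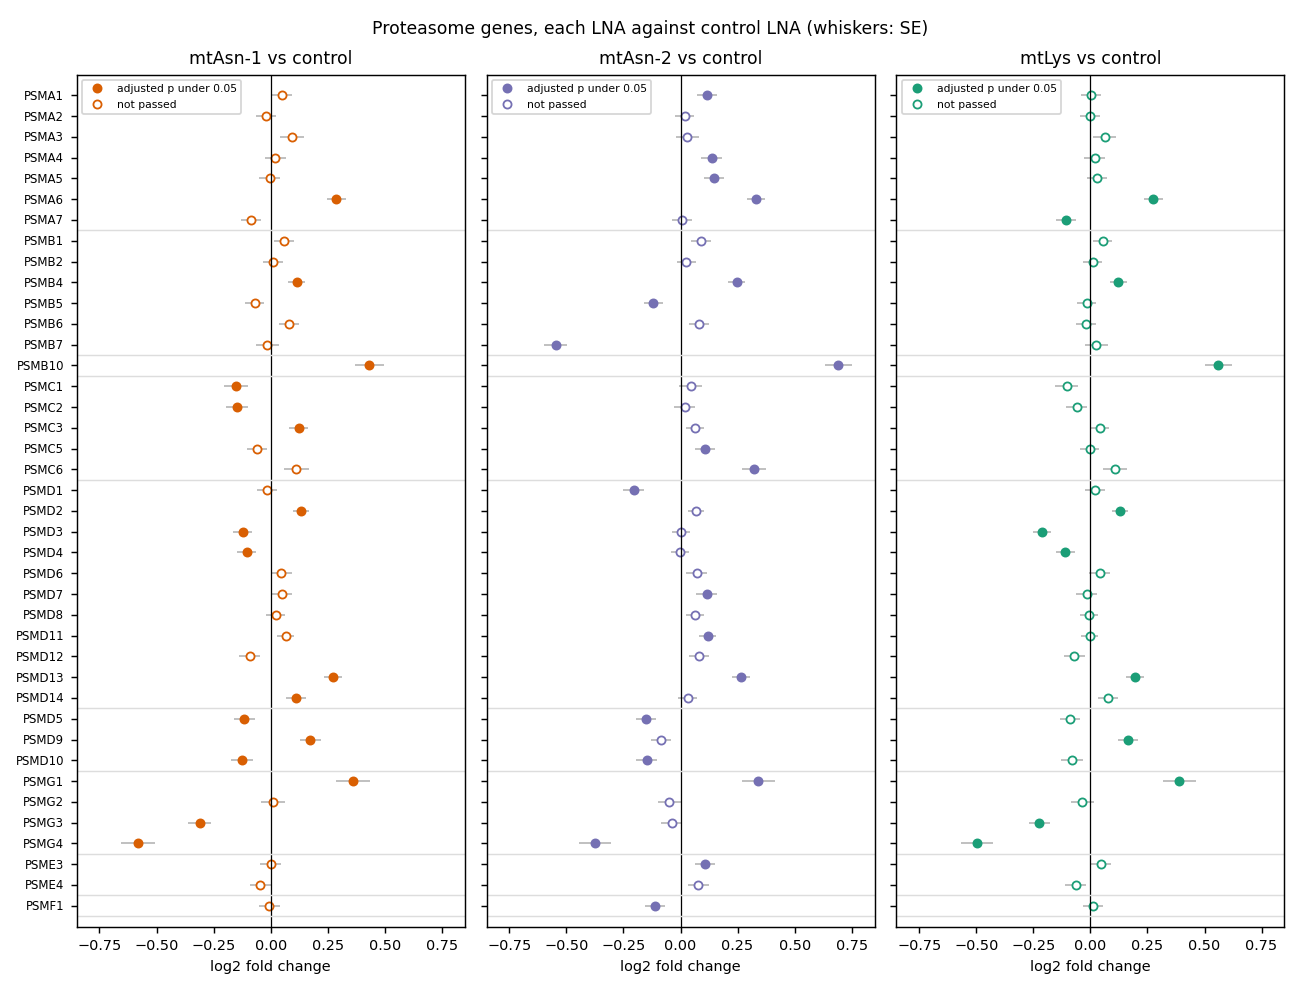
Log2 fold change of the 40 tested proteasome genes without an alternate copy, for mtAsn-1, mtAsn-2 and mtLys (panels, left to right) against control LNA; whiskers are SE, filled points have an adjusted p under 0.05, and grey lines separate the classes of subunit. Most points lie near 0, while PSMB10 lies farthest right in every panel, PSMG4 far left in every panel, and PSMB7 far left with mtAsn-2.

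Of the beta subunits, PSMB10 rose with each LNA. PSMB10 (chromosome 16, 67934506 to 67936850, minus strand, hg38), which takes the place of PSMB7 in the immunoproteasome, was at 39.0, 34.8 and 40.8 CPM with mtAsn-1, 48.6, 44.3 and 44.9 CPM with mtAsn-2, 41.9, 41.7 and 42.3 with mtLys, and 26.6, 28.7 and 30.2 in control. Every library of each mitochondrial tRNA LNA lay above every control library. By edgeR's test PSMB10 rose by 0.43 ± 0.0627 with mtAsn-1 (log2 ± SE, adjusted p = 1.66e-06), by 0.69 ± 0.0596 with mtAsn-2 (adjusted p = 1.15e-10) and by 0.56 ± 0.0601 with mtLys (adjusted p = 9.87e-09), or 1.35, 1.62 and 1.48 fold. It was the largest rise among the tested members in each of these comparisons. None of its exons overlaps an exon of another gene in the table, and it has no listed copy.

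PSMB7 (chromosome 9, 124353465 to 124415442, minus strand), the constitutive subunit with trypsin-like activity, was lower with mtAsn-2. It was at 66.5, 62.8 and 67.3 CPM with mtAsn-2, against 89.4, 103 and 94.9 CPM in control, and the libraries of mtAsn-2 lay below all others. With mtAsn-1 it was at 101, 89.2 and 93.5 CPM and with mtLys at 96.6, 97.4 and 98.2, overlapping control. The log2 fold change was -0.55 ± 0.0512 with mtAsn-2 (edgeR adjusted p = 5.78e-10), -0.01 ± 0.0514 with mtAsn-1 (adjusted p = 0.838) and 0.03 ± 0.0503 with mtLys (adjusted p = 0.709). Exons of LOC100129034 on the other strand cover 389 of the 984 exon bases of PSMB7. The counting is not stated to use the strand, so reads of the shared bases cannot be told apart, and LOC100129034 itself changed by -0.19 with mtAsn-2 (adjusted p = 0.00123).

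PSMB5, which has chymotrypsin-like activity, moved much less. It was at 154, 154 and 159 CPM with mtAsn-2, against 171, 173 and 164 in control, with no overlap, and fell by 0.12 ± 0.041 (edgeR adjusted p = 0.0156). That call was lost under 5 of 19 alternatives, with an adjusted p of 0.0684 without control replicate 2, 0.0509 without mtAsn-2 replicate 1 and 0.0529 without mtAsn-2 replicate 2. With mtAsn-1 (163, 158 and 163 CPM) and mtLys (164, 177 and 161 CPM) PSMB5 did not pass, with adjusted p of 0.168 and 0.765 by edgeR. PSMB6, with caspase-like activity, did not pass in any comparison with control: its log2 fold changes were 0.08 for mtAsn-1, 0.08 for mtAsn-2 and -0.02 for mtLys (edgeR adjusted p = 0.131, 0.114 and 0.739). Its libraries ran from 146 to 154 CPM with mtAsn-1, 148 to 153 with mtAsn-2, 136 to 146 with mtLys and 136 to 150 in control, and each LNA group overlapped control. Without control replicate 2 it passed against control with mtAsn-1 (adjusted p = 0.0390) and mtAsn-2 (0.0316). The mtLys libraries lay below those of mtAsn-1 and mtAsn-2. PSMB6 was called higher with mtAsn-2 than with mtLys, a call lost under 10 of 19 alternatives.

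Because PSMB10 and PSMB7 fill the same place in the ring, their RNA was also set side by side per kilobase of exon, as a description without a test. The ratio of PSMB10 to PSMB7 was 0.387, 0.393 and 0.440 in the mtAsn-1 libraries, 0.736, 0.710 and 0.672 in those of mtAsn-2, 0.437, 0.431 and 0.434 with mtLys, and 0.300, 0.282 and 0.320 in control. All mtAsn-2 libraries lay above those of the other groups and all control libraries below them.

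**Figure D3:**
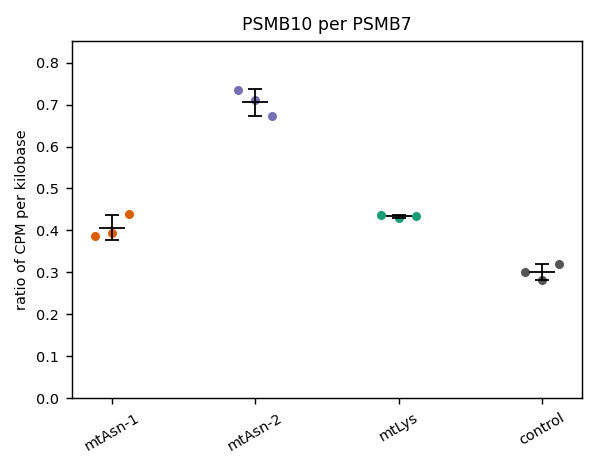
Ratio of PSMB10 to PSMB7 RNA, each in CPM per kilobase of exon, in each library (points) of mtAsn-1, mtAsn-2, mtLys and control LNA, with mean and SD over 3 libraries. The mean ratio was 0.407 with mtAsn-1, 0.706 with mtAsn-2, 0.434 with mtLys and 0.301 in control.

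Among the structural beta subunits PSMB4, known to join the core last, was at 285, 285 and 286 CPM with mtAsn-1, 319, 307 and 312 CPM with mtAsn-2, 290, 282 and 288 with mtLys, and 252, 268 and 271 in control. Every library of the mitochondrial tRNA LNAs was above every control library. PSMB4 rose by 0.11 ± 0.038, 0.25 ± 0.0376 and 0.12 ± 0.0376 with mtAsn-1, mtAsn-2 and mtLys (edgeR adjusted p = 0.0145, 3.00e-06 and 0.00873). Without control replicate 1 its adjusted p became 0.100 with mtAsn-1 and 0.0692 with mtLys. PSMB1 and PSMB2 did not pass in any of the 3 comparisons.

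In the alpha ring 1 of 7 genes rose with mtAsn-1, 4 rose with mtAsn-2, and 1 rose and 1 fell with mtLys. PSMA6 (chromosome 14, 35278558 to 35317493, plus strand), a structural alpha subunit, was at 167, 177 and 168 CPM with mtAsn-1, 181, 175 and 172 CPM with mtAsn-2, 165, 168 and 175 with mtLys, and 137, 141 and 142 in control. The control libraries lay below all others. PSMA6 rose by 0.29 ± 0.0407, 0.33 ± 0.0401 and 0.28 ± 0.0402 with mtAsn-1, mtAsn-2 and mtLys (edgeR adjusted p = 1.12e-06, 6.26e-08 and 1.77e-06). PSMA5, PSMA4 and PSMA1 also rose with mtAsn-2, by 0.15, 0.14 and 0.12, and each of these calls was lost without mtAsn-2 replicate 1 (adjusted p = 0.0616, 0.0660 and 0.102 by edgeR). PSMA4 and PSMA1 lost theirs also without control replicate 1 (adjusted p = 0.114 and 0.178), and PSMA1 without mtAsn-2 replicate 2 (0.0551). PSMA7, the most abundant member, fell by 0.11 ± 0.0423 with mtLys (edgeR adjusted p = 0.0374). That call did not hold without control replicate 2 (0.232) or any 1 of the mtLys libraries (0.0570 to 0.102). It was lost also with the replicate block (0.0540) and with no filter on low counts (0.0741). PSMA2 and PSMA3 did not pass in any of these comparisons.

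Of 5 tested ATPases of the cap, which unfold the substrate, 1 rose and 2 fell with mtAsn-1, 2 rose with mtAsn-2, and 0 passed with mtLys. PSMC6 (chromosome 14, 52707163 to 52728590, plus strand) was at 94.6, 92.1 and 91.1 CPM with mtAsn-2, against 68.1, 80.4 and 73.5 in control. These groups did not overlap, and PSMC6 rose by 0.32 ± 0.0525 (edgeR adjusted p = 8.02e-06). With mtAsn-1 and with mtLys its log2 fold change was 0.11 in each case and did not pass (edgeR adjusted p = 0.0867 and 0.0908), but it passed without control replicate 2 (0.00995 and 0.0105), and for mtAsn-1 also without mtAsn-1 replicate 2 (0.0329). The other rises were PSMC3 with mtAsn-1 (0.12) and PSMC5 with mtAsn-2 (0.11), both lost without control replicate 1 (adjusted p = 0.130 and 0.222). PSMC3 was lost also without mtAsn-1 replicate 1 (0.0584), and PSMC5 without control replicate 3 (0.0803), mtAsn-2 replicate 1 (0.179) or mtAsn-2 replicate 2 (0.0538) and with the replicate block (0.0574). PSMC1 was at 41.7, 41.3 and 44.4 CPM with mtAsn-1, against 45.6, 49.0 and 47.3 in control, and fell by 0.15 ± 0.052 (edgeR adjusted p = 0.0161). PSMC2 was at 155, 147 and 155 CPM with mtAsn-1, against 158, 184 and 164 in control, and fell by 0.15 ± 0.0477 (edgeR adjusted p = 0.0122). Groups did not overlap for either gene, but both calls were lost without control replicate 2 (adjusted p = 0.0909 for PSMC1 and 0.182 for PSMC2) and without mtAsn-1 replicate 2 (0.0532 and 0.0518), and that of PSMC1 also without mtAsn-1 replicate 1 (0.0577). Exons on the other strand cover 3654 of 5951 exon bases of PSMC1 (NRDE2) and 947 of 4134 of PSMC2 (SLC26A5), so their counts may mix genes. NRDE2 itself rose by 0.25 with mtAsn-1 (edgeR adjusted p = 0.00146). SLC26A5 had only 5 to 19 counts per library, against 2569 to 6464 for PSMC2.

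Of the 11 non-ATPase subunits, 3 rose and 2 fell with mtAsn-1, 3 rose and 1 fell with mtAsn-2, and 2 rose and 2 fell with mtLys. PSMD13 (chromosome 11, 236972 to 252984, plus strand), a subunit of the cap's lid, was at 171, 180 and 175 CPM with mtAsn-1, 178, 176 and 168 CPM with mtAsn-2, 162, 167 and 168 with mtLys, and 140, 148 and 146 in control. Every control library was below every other library. PSMD13 rose by 0.27 ± 0.0404, 0.27 ± 0.0398 and 0.19 ± 0.0399 with mtAsn-1, mtAsn-2 and mtLys (edgeR adjusted p = 2.36e-06, 2.20e-06 and 0.000187). PSMD2, a scaffold of the cap's base, rose by 0.13 with mtAsn-1 and 0.13 with mtLys and was at 0.07 with mtAsn-2 (edgeR adjusted p = 0.00292, 0.00303 and 0.111). PSMD11, also of the lid, rose by 0.12 with mtAsn-2.

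PSMD1 (chromosome 2, 231056864 to 231172827, plus strand), the other large scaffold of the base, fell with mtAsn-2. It was at 139, 136 and 125 CPM with mtAsn-2, against 146, 155 and 160 in control, without overlap, a fall of 0.21 ± 0.0445 (edgeR adjusted p = 0.000300). With mtAsn-1 and mtLys its log2 fold changes were -0.02 and 0.02, and neither passed. PSMD3, of the lid, was at 239, 230.5 and 234 CPM with mtAsn-1, 221, 221 and 219.9 with mtLys and 250, 269 and 246 in control, and these groups did not overlap. It fell by 0.12 ± 0.0397 with mtAsn-1 (edgeR adjusted p = 0.0115), where leaving out control replicate 2 gave 0.116, and by 0.21 ± 0.0394 with mtLys (6.22e-05). PSMD4, a receptor for ubiquitin chains, fell by 0.11 with each of mtAsn-1 and mtLys (edgeR adjusted p = 0.0308 and 0.0240). The mtAsn-1 call was lost without control replicate 2 or 3 or mtAsn-1 replicate 2 (0.0899 to 0.163), and the mtLys call without control replicate 2 or 3 or mtLys replicate 1 or 2 (0.0660 to 0.0953). Both were lost also with no filter on low counts (0.0795 and 0.0898) and with libraries thinned to equal totals (0.0541 and 0.0891). The mtAsn-1 call was lost in the compared groups alone too (0.0827). By library, PSMD4 was at 186, 173 and 187 CPM with mtAsn-1, 181, 180 and 185 with mtLys, and 189, 200.5 and 199 in control, with no overlap but a narrow gap to control. PSMD14, the deubiquitinase of the lid, rose by 0.11 with mtAsn-1 (edgeR adjusted p = 0.0384) and did not pass once control replicate 1 or 3 or any single mtAsn-1 library was left out (0.0520 to 0.161). PSMD7, which pairs with PSMD14 in the lid, rose by 0.11 with mtAsn-2 (edgeR adjusted p = 0.0359) and did not pass once control replicate 1 or 3 or mtAsn-2 replicate 1 or 2 was left out (0.0684 to 0.148). The PSMD14 call was lost also with no filter on low counts (0.0686), the replicate block (0.0590) and libraries thinned to equal totals (0.0669), and the PSMD7 call with the replicate block (0.0562).

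Of 4 chaperones of core assembly, 1 rose and 2 fell with mtAsn-1 and with mtLys, and 1 rose and 1 fell with mtAsn-2. PSMG1 (chromosome 21, 39174769 to 39183514, minus strand) pairs with PSMG2, and PSMG3 pairs with PSMG4; both pairs help to build the alpha ring. PSMG1 was at 30.5, 32.1 and 33.5 CPM with mtAsn-1, 33.8, 32.4 and 28.9 CPM with mtAsn-2, 29.2, 33.5 and 36.0 with mtLys, and 23.9, 25.5 and 25.7 in control. All control libraries lay below all others. PSMG1 rose by 0.36 ± 0.0743, 0.34 ± 0.0713 and 0.39 ± 0.0713 with mtAsn-1, mtAsn-2 and mtLys (edgeR adjusted p = 0.000236, 0.000229 and 5.58e-05). Its partner PSMG2 did not pass, with log2 fold changes of 0.01, -0.05 and -0.04 (edgeR adjusted p = 0.898, 0.455 and 0.607).

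PSMG4 (chromosome 6, 3254325 to 3308224, plus strand) was at 14.8, 15.1 and 14.98 CPM with mtAsn-1, 17.2, 17.0 and 17.6 CPM with mtAsn-2, 16.7, 14.9 and 16.0 with mtLys, and 21.3, 24.4 and 21.1 in control. Every control library lay above every other library. PSMG4 fell by 0.58 ± 0.0738, 0.37 ± 0.0685 and 0.50 ± 0.0694 with mtAsn-1, mtAsn-2 and mtLys (edgeR adjusted p = 1.95e-07, 3.92e-05 and 9.69e-07), which was the largest fall of a called member with mtAsn-1 and with mtLys. PSMG3 (chromosome 7, 1567332 to 1570490, minus strand) was at 40.4, 39.3 and 38.5 CPM with mtAsn-1, 48.2, 47.0 and 47.5 CPM with mtAsn-2, 40.9, 43.2 and 41.5 with mtLys, and 48.2, 49.5 and 48.9 in control. The mtAsn-1 and mtLys libraries lay below control, and those of mtAsn-2 overlapped it. PSMG3 fell by 0.31 ± 0.0493 with mtAsn-1 and 0.22 ± 0.0473 with mtLys (edgeR adjusted p = 6.34e-06 and 0.000268) and was at -0.04 with mtAsn-2 (adjusted p = 0.523).

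**Figure D4:**
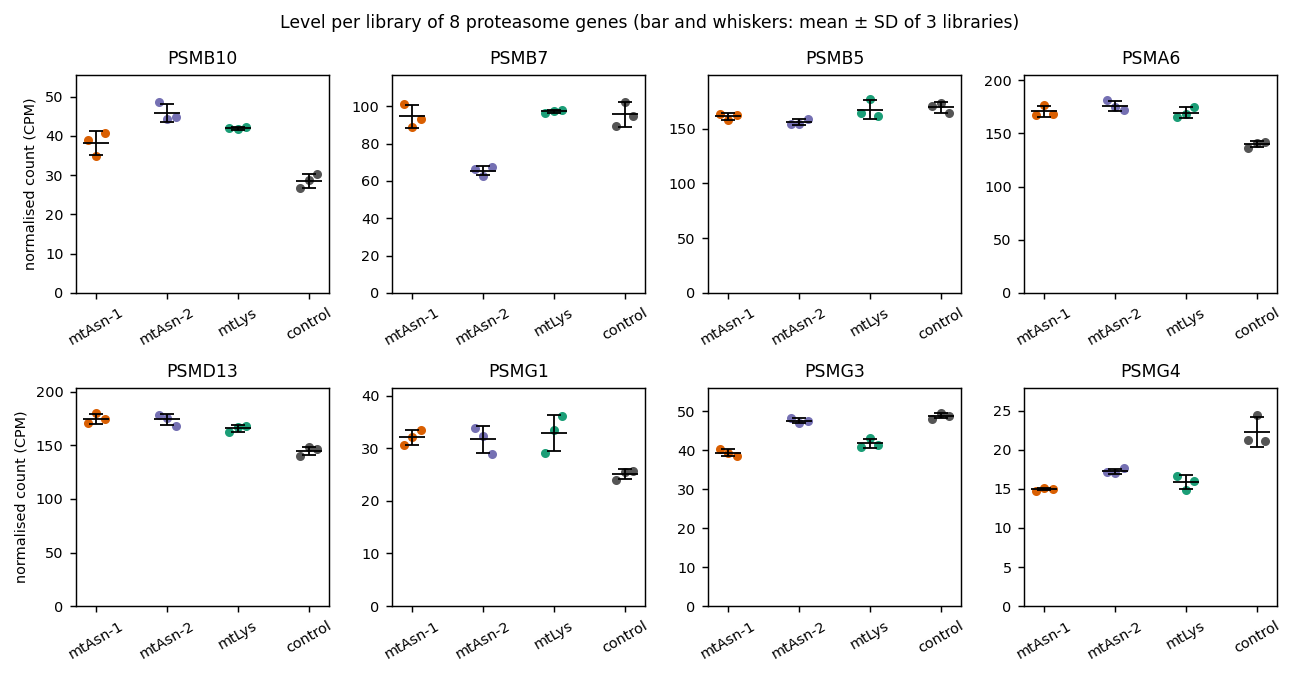
Normalised counts (CPM) of 8 proteasome genes in each library (points) of mtAsn-1, mtAsn-2, mtLys and control LNA, with mean and SD over 3 libraries; each axis starts at 0. PSMB10, PSMA6, PSMD13 and PSMG1 lie lowest and PSMG4 highest in control, PSMB7 is lowest with mtAsn-2, and PSMG3 with mtAsn-2 sits at its control level.

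The 3 chaperones of the cap's base were changed by small amounts. PSMD5 fell by 0.11 with mtAsn-1 and by 0.15 with mtAsn-2, and PSMD10 by 0.13 and 0.15 (edgeR adjusted p = 0.0361, 0.00445, 0.0351 and 0.0102). With mtAsn-1, the PSMD5 call was lost without control replicate 2 or 3 or mtAsn-1 replicate 1 or 3 (adjusted p = 0.0532 to 0.173), and the PSMD10 call without control replicate 2 or 3 or mtAsn-1 replicate 2 or 3 (0.0631 to 0.123). Both were lost also with no filter on low counts (0.111 and 0.0703), the replicate block (0.0567 and 0.0524) and the compared groups alone (0.0830 and 0.0571), and PSMD10 with DESeq2 (0.05003). With mtAsn-2, PSMD10 was lost without control replicate 3 (0.0508), without mtAsn-2 replicate 2 (0.0583) and with no filter on low counts (0.0629). PSMD5 was lost there only with no filter on low counts (0.0506). PSMD9 rose by 0.17 ± 0.0466 with mtAsn-1 and 0.16 ± 0.0455 with mtLys (edgeR adjusted p = 0.00279 and 0.00362) and was at -0.09 with mtAsn-2 (0.122). The mtLys call was lost when libraries were thinned to equal totals (0.0587). By library it was at 78.4, 75.3 and 77.1 CPM with mtAsn-1, 64.9, 61.7 and 66.2 CPM with mtAsn-2, 75.0, 76.7 and 77.9 with mtLys, and 65.2, 68.6 and 71.1 in control. The mtAsn-1 and mtLys libraries lay above all control libraries, and mtAsn-2 overlapped control.

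Activators and the inhibitor changed little. PSME3, which forms the nuclear activator PA28 gamma, was at 236, 225 and 222 CPM with mtAsn-2, against 204, 220 and 209 in control, and rose by 0.11 ± 0.0441 (edgeR adjusted p = 0.0415). PSMF1, the inhibitor PI31, was at 83.4, 81.3 and 79.5 CPM with mtAsn-2, against 88.4, 89.8 and 85.5 in control, and fell by 0.11 ± 0.0443 (adjusted p = 0.0364). Groups did not overlap in these 2 cases, but the PSME3 call was lost without control replicate 1 or 3 or mtAsn-2 replicate 1 or 2 (adjusted p = 0.0623 to 0.183), and the PSMF1 call without control replicate 1 or 2, mtAsn-2 replicate 2 or 3 or mtLys replicate 2 (0.0585 to 0.121). Both were also lost with the replicate block (0.0613 and 0.0545), and PSME3 with libraries thinned to equal totals (0.0633). PSMF1 was lost also with DESeq2 (0.0630), RLE factors (0.0532), the compared groups alone (0.0875) and no filter on low counts (0.240). With mtAsn-1 and mtLys the log2 fold changes were 0.00 and 0.04 for PSME3 and -0.01 and 0.01 for PSMF1, none past the test. PSME4, the activator PA200, was at 84.1 to 86.6 CPM with mtAsn-1, 88.5 to 97.2 with mtAsn-2, 82.3 to 88.1 with mtLys and 85.6 to 89.9 in control, and did not pass (log2 fold changes of -0.05, 0.08 and -0.06), except with mtAsn-2 when its replicate 3 was left out (adjusted p = 0.0484). PSME2, at 0.426 to 1.01 CPM over all libraries, gave -0.54, -0.63 and -0.44 and did not pass, except with mtAsn-2 without control replicate 3 (adjusted p = 0.0318) or mtAsn-2 replicate 1 (0.0222).

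Of the calls against control, 8 of 17 with mtAsn-1, 10 of 20 with mtAsn-2 and 8 of 12 with mtLys held in all 19 alternatives, which include leaving out each of the 12 libraries in turn. PSMB10, PSMG1, PSMA6, PSMD13 and PSMG4 were among them in each comparison. With mtAsn-1 the others were PSMD2, PSMD9 and PSMG3, with mtAsn-2 PSMB4, PSMC6, PSMD11, PSMB7 and PSMD1, and with mtLys PSMD2, PSMD3 and PSMG3.

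The LNAs were then compared with each other. Between mtAsn-1 and mtAsn-2, which are named for the same tRNA, mtAsn-1 had 3 higher and 15 lower proteasome genes, or 43.9% of the 41, where 46.5% of all tested genes passed (24.6% higher, 21.9% lower). Between mtAsn-2 and mtLys, 16 were higher and 5 lower with mtAsn-2, or 51.2%, against 48.6% of all genes (22.9% higher, 25.7% lower). Between mtAsn-1 and mtLys, 0 passed edgeR's test and 0 passed with DESeq2, against 5.26% of all genes (2.12% higher, 3.14% lower), and 3 had an unadjusted p under 0.05 by edgeR (PSMB6, PSMD3 and PSMB10). Approximate 95% intervals of the log2 difference between mtAsn-1 and mtLys lay between -0.24 and 0.18 for all of the 40 genes. The first 2 of these comparisons share the mtAsn-2 libraries.

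PSMB7 had the largest differences between LNAs: it was higher with mtAsn-1 than with mtAsn-2 by 0.53 ± 0.0517 and lower with mtAsn-2 than with mtLys by 0.57 (log2 fold change -0.57 ± 0.0505), with edgeR adjusted p of 1.45e-09 and 2.04e-10. PSMD9 was higher by 0.26 with mtAsn-1 than with mtAsn-2 and lower with mtAsn-2 than with mtLys (log2 fold change -0.25), with edgeR adjusted p of 3.18e-05 and 3.47e-05. PSMD1 gave 0.19 and -0.23 in the same 2 comparisons (adjusted p = 0.000890 and 9.50e-05). The opposite direction was seen for PSMG3, with log2 fold changes of -0.27 for mtAsn-1 against mtAsn-2 and 0.19 for mtAsn-2 against mtLys (edgeR adjusted p = 3.22e-05 and 0.00147). PSMC6 likewise gave -0.21 and 0.21 (0.00178 and 0.00110). Among ATPases, 4 of 5 were called lower with mtAsn-1 than with mtAsn-2, where 21.9% of all tested genes were lower. In that comparison 2 of 7 alpha, 1 of 6 constitutive beta and 3 of 11 non-ATPase genes were lower. The difference between classes was not tested.

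PSMB10 differed between the asparagine LNAs, at -0.26 ± 0.0586 for mtAsn-1 against mtAsn-2 (edgeR adjusted p = 0.000601), with no overlap of libraries. Its difference was 0.13 ± 0.056 for mtAsn-2 against mtLys (adjusted p = 0.0543) and -0.13 ± 0.0591 for mtAsn-1 against mtLys (0.242), neither past the threshold. PSMG4 gave -0.21 ± 0.0737 for mtAsn-1 against mtAsn-2 (edgeR adjusted p = 0.0224), a call lost without mtAsn-1 replicate 1 (0.0611), mtAsn-1 replicate 3 (0.0561) or mtAsn-2 replicate 3 (0.0577). PSMG1, PSMA6 and PSMD13 did not pass in any comparison between LNAs. Leaving out mtAsn-2 replicate 1 reduced the 16 genes higher with mtAsn-2 than with mtLys to 5, and leaving out mtLys replicate 1 reduced them to 7.

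**Figure D5:**
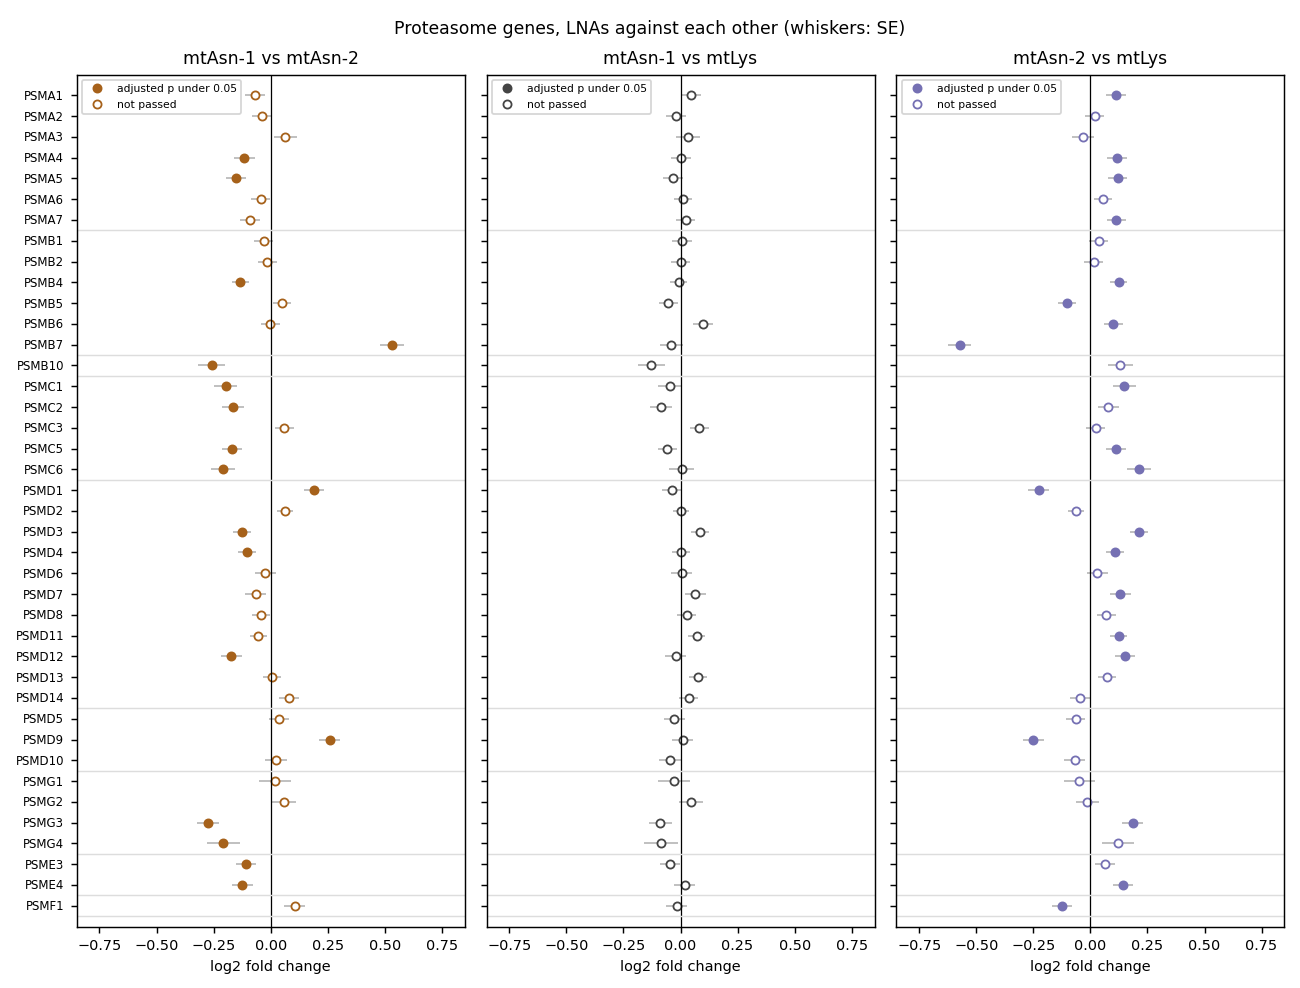
Log2 fold change of the same 40 proteasome genes between LNAs: mtAsn-1 against mtAsn-2, mtAsn-1 against mtLys and mtAsn-2 against mtLys; whiskers are SE and filled points have an adjusted p under 0.05. The middle panel has 0 filled points, and PSMB7 lies farthest from 0 in the outer panels, at 0.53 and -0.57.

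The sequence before the start of the genes was searched for known elements in the RefSeq promoters of the build GRCh38.p14, taking the 250 bases upstream of each start. Promoters were found for 42 of the 48 genes, with 51 starts in all. TGANNNNGC is a looser pattern than the core of the antioxidant response element, through which NFE2L1 is known to bind. It occurred on either strand in 29 of 51 proteasome promoters (56.9%) and in 12346 of 35116 promoters of all genes (35.2%). Each start was counted, so a gene with several starts, such as PSMA6, can enter more than once. The repeat GAAANNGAA, to which interferon regulatory factors are known to bind, occurred in 5 of 51 (9.80%) and in 6.88% of all promoters. The gamma interferon site TTCNNNGAA occurred in 7 of 51 (13.7%) and 6.57% of all, and the box CCAAT in 19 of 51 (37.3%) and 32.0% of all.

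Promoters are printed for the 5 genes that passed with each LNA against control in every alternative run: PSMB10, PSMG1, PSMA6 and PSMD13, which rose, and PSMG4, which fell. Capitals mark every match to TGANNNNGC or GAAANNGAA on either strand, and the sequences are given 5′ to 3′ on the strand of the gene. They lie at chr16:67936851-67937100 (PSMB10, minus strand), chr21:39183452-39183701 (PSMG1, minus strand), chr14:35292067-35292316 (PSMA6, plus strand, the upstream one of its 2 RefSeq starts, which lies inside the span given above), chr11:236726-236975 (PSMD13, plus strand) and chr6:3258697-3258946 (PSMG4, plus strand). The PSMG4 promoter also lies inside the span given above for its gene, and those of PSMG1 and PSMD13 overlap the edge of theirs.
PSMB10: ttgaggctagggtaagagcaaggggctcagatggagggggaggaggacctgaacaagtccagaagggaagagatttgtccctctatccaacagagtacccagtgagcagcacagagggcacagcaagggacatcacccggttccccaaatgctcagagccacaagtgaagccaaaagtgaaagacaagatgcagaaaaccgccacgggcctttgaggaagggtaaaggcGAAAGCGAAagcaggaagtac
PSMG1: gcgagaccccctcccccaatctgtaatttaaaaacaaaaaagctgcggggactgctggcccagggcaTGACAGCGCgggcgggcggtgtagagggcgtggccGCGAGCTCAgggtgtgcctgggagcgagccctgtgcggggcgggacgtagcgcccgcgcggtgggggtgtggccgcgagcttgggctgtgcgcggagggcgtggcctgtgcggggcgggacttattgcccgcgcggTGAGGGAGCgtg
PSMA6: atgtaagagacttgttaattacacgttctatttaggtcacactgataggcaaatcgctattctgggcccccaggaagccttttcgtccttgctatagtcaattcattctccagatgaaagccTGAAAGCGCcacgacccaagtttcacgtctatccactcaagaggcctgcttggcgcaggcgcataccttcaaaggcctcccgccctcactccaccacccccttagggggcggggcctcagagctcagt
PSMD13: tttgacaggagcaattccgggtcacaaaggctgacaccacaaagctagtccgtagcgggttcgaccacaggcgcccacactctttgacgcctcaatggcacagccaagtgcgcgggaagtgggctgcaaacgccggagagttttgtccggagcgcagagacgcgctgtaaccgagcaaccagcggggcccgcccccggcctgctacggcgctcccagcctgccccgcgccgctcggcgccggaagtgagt
PSMG4: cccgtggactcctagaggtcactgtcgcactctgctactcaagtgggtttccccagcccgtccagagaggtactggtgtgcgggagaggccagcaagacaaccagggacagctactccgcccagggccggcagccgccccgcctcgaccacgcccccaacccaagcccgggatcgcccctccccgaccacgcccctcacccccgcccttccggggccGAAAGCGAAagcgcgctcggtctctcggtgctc
PSMB10 and PSMG4, which changed in opposite directions, each hold the same match to GAAANNGAA and no TGANNNNGC. PSMG1 holds 3 matches to TGANNNNGC and PSMA6 holds 1, while PSMD13, which rose too, holds neither. A match describes the letters of the promoter and shows no binding.

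Genes that work with the proteasome were read from lists chosen for their role. Their counts stand beside the 48.5%, 51.1% and 48.5% of all tested genes that passed with mtAsn-1, mtAsn-2 and mtLys, and nothing particular to a list is read from them. Of 2 cap subunits without a PSM name, SEM1 rose with each LNA (0.15, 0.21 and 0.18 on the log2 scale with mtAsn-1, mtAsn-2 and mtLys, edgeR adjusted p = 0.0132, 0.000488 and 0.00223), and ADRM1, a ubiquitin receptor, did not pass. Among 12 assembly and associated factors, 1 rose and 7 fell with mtAsn-1, 1 rose and 6 fell with mtAsn-2, and 1 rose and 5 fell with mtLys. MIDN, the midnolin that carries nuclear proteins to the proteasome without ubiquitin, averaged 117 CPM with mtAsn-1, 85.8 with mtAsn-2, 103 with mtLys and 201 in control. Its log2 fold changes of -0.79, -1.23 and -0.96 all passed, and exceeded in size those of every tested proteasome gene. UBE3C, a ubiquitin ligase bound to the proteasome, was lower with mtAsn-2 (-0.53) and did not pass with mtAsn-1 (-0.05) or mtLys (-0.04). ZFAND5 (-0.26, -0.42 and -0.27) and ZFAND2A (-0.47, -0.47 and -0.50), a pair of zinc finger proteins that act on the proteasome, fell with each LNA.

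Shuttle receptors carry ubiquitin-tagged proteins to the proteasome. Of 6, 1 rose and 5 fell with mtAsn-1, 1 rose and 4 fell with mtAsn-2, and 1 rose and 5 fell with mtLys. DDI2, which also cuts NFE2L1 into its active form, fell by 0.63, 0.29 and 0.68 with mtAsn-1, mtAsn-2 and mtLys. UBQLN2 (-0.43, -0.34 and -0.44) and UBQLN4 (-0.18, -0.10 and -0.28) fell too.

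Of 11 genes that control subunit transcription, 3 rose and 4 fell with mtAsn-1, 6 rose and 2 fell with mtAsn-2, and 3 rose and 4 fell with mtLys. NGLY1, the glycanase that processes NFE2L1, averaged 34.1 CPM with mtAsn-1, 17.1 with mtAsn-2, 33.2 with mtLys and 31.4 in control, and only the fall of 0.88 with mtAsn-2 passed. Its log2 fold changes with mtAsn-1 and mtLys were 0.11 and 0.08. SEL1L, of the machinery that withdraws proteins from the endoplasmic reticulum, rose by 0.23, 0.32 and 0.25. MAFG, a small partner of NFE2L1 on DNA, fell by 0.30, 0.13 and 0.43, and MAFK, another, rose by 0.33 with mtAsn-2, fell by 0.18 with mtLys and was at -0.11 with mtAsn-1 without passing. NFE2L1 itself, named after its values were seen, was at -0.01 for mtAsn-1, 0.16 for mtAsn-2 and -0.03 for mtLys (edgeR adjusted p = 0.913, 0.000211 and 0.456).

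Of 6 genes for ubiquitin and its activation, 1 rose and 2 fell with mtAsn-1, 1 rose and 3 fell with mtAsn-2, and 0 passed with mtLys. UBB, which encodes a chain of ubiquitin units, fell by 0.23 with mtAsn-2 and by 0.12 with mtAsn-1. RPS27A, a ubiquitin fused to a ribosomal protein, rose by 0.10 with mtAsn-2, while UBA1, the main ubiquitin-activating enzyme, rose by 0.09 with mtAsn-1 and fell by 0.11 with mtAsn-2. Of 8 interferon-responsive partners 6 were tested, as TAP1 and TAP2, each with 7 alternate copies, were listed near 0. Of these 6, 1 rose and 2 fell with mtAsn-1, 3 rose and 1 fell with mtAsn-2, and 2 rose and 2 fell with mtLys. IRF1, a factor known to drive immunoproteasome genes, fell by 0.59 with mtAsn-1 and 0.29 with mtLys and was at 0.11 with mtAsn-2 without passing. NLRC5, an activator of antigen presentation genes, rose by 0.39, 0.42 and 0.59 with mtAsn-1, mtAsn-2 and mtLys. ERAP1, which trims peptides for presentation, rose by 0.52 with mtAsn-2 and 0.29 with mtLys and was at 0.10 with mtAsn-1 without passing. TAPBP, the fourth named, has 4 alternate copies and at most 62 counts, so its fall in all 3 comparisons is uncertain.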

How the data were processed

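Total RNA of 12 libraries (mtAsn-1, mtAsn-2, mtLys and control LNA, 3 each, 20 nM, day 2) was sequenced from TruSeq kit libraries, per the labels. The authors deposited 1 table of raw counts per gene. The submitters' processing notes name FastQC, STAR 2.6.0a, featureCounts, DESeq2 and the build hg38, without their roles, and nothing used here states the strandedness or the treatment of reads with several matches. Of 52897 lines, 38 were broken and left out; 6108 genes on alternate loci were kept as separate genes.

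Counts were fitted in 1 model of all libraries with edgeR 4.0.16 in R 4.3.3: TMM factors, filterByExpr (minimum count 10, minimum total 15), robust quasi-likelihood F tests, and Benjamini-Hochberg adjustment over 16051 genes with a threshold of 0.05. The common biological coefficient of variation was 0.0421. CPM uses TMM-scaled library sizes, and per-kilobase levels divide it by the joined exon length of the table. The TMM factors were 1.04 to 1.05 in the mtAsn-2 libraries and 0.974 to 0.994 in all others. SE was obtained by dividing the size of a log2 fold change by the root of its F value, so it is approximate, as are the 95% intervals made from it. No pair of replicates looked like 1 library deposited again (chi-square per gene 2.33 or more).

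The members, lists and tests were chosen with earlier results of these data known. By rule, values per library were to be written out for PSMB5 to PSMB10, PSME1 to PSME4, PSMF1, the 4 largest called rises and 4 largest falls against control and the 2 and 2 largest between LNAs. PSMB4 was written out as well, though outside this rule. PSMB6, PSME2 and PSME4, which it names, are given by range, and PSMD5, also named by it, by fold change. Other members are given by range, count or fold change, and up to 4 partners per list by smallest adjusted p. Some partner genes that this rule names are not reported here. The alternatives tried were DESeq2 1.42.0, RLE factors, a filter dropped or made stricter (1 CPM throughout a group, mean log2 CPM of 2), a replicate block, the compared groups alone, libraries thinned to 17978825 counts, and leaving out each library. Figures were drawn with matplotlib 3.10.9, and tables made with pandas 2.3.3 in Python 3.11.15.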

Additional observations from a re-analysis of the deposited data

How the results depend on the processing

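No fold change of a named gene changed sign under the 19 alternatives where it was called, and the counts of higher genes moved by at most 1.5 times except as given here. Without the filter on low counts, genes lower against control numbered 5 with mtAsn-1 (8 in the main analysis), 3 with mtAsn-2 (7) and 3 with mtLys (5), and genes lower with mtAsn-2 than with mtLys 3 (5); in the compared groups alone, 5 were lower with mtAsn-1. Leaving out 1 library in turn gave 6 to 11 higher and 2 to 8 lower with mtAsn-1, 7 to 16 and 4 to 7 with mtAsn-2, and 6 to 8 and 3 to 5 with mtLys, each against control. It gave 3 to 4 higher and 10 to 15 lower for mtAsn-1 against mtAsn-2, 5 to 17 and 3 to 5 for mtAsn-2 against mtLys, and 0 in each direction for mtAsn-1 against mtLys. The lowest of these came without control replicate 2 (2 lower with mtAsn-1), mtAsn-2 replicate 1 (7 higher with mtAsn-2) and mtAsn-2 replicate 2 (4 lower with mtAsn-2), and the cause was not tested. Other losses were 5 lower with mtAsn-1 without control replicate 3 and 4 without mtAsn-1 replicate 2, 8 higher with mtAsn-2 without control replicate 1, and 3 lower with mtLys without control replicate 2, mtLys replicate 1 or mtLys replicate 2. Genes lower with mtAsn-2 than with mtLys numbered 3 without mtAsn-2 replicate 2.

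Same-numbered libraries were not seen to deviate together (correlations of -0.0991 to 0.0417, against -0.0978 to 0.123 for different numbers). Only 1 of 12 libraries correlated best with its own number. These values cannot show whether libraries of the same number shared a culture or batch. With the replicate block, mtAsn-1 had 8 higher and 6 lower genes against control, mtAsn-2 had 10 and 6, and mtLys had 7 and 4, with 3 and 13 for mtAsn-1 against mtAsn-2, 14 and 4 for mtAsn-2 against mtLys and 0 for mtAsn-1 against mtLys. Calls against control that were lost in some alternative numbered 23 and had log2 fold changes of at most 0.16 in size. The 5 members listed at or near 0 with copies on alternate loci gave no reading.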

Other observations

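Outside the set, 39 proteasome pseudogenes were listed, of which 9 were tested. With mtAsn-2, 3 rose: PSME2P1 by 0.62 (edgeR adjusted p = 0.00357), PSMA6P1 by 0.44 (0.0312) and PSME2P2 by 0.33 (0.0385). That is 3 of 9, where 24.1% of all tested genes were higher with mtAsn-2. None passed with mtAsn-1 or mtLys at that threshold. PSME2P1 had 29 to 83 counts per library and PSME2P2 had 59 to 172, against 11 to 29 for PSME2 itself. How reads that fit both a gene and its pseudogene were counted was not tested, so their values may not be separate. PSME3IP1, which encodes a partner of PSME3, averaged 68.8 ± 2.68 CPM with mtAsn-1, 66.9 ± 1.34 with mtAsn-2, 66.3 ± 1.73 with mtLys and 53.7 ± 1.03 in control (SD, n = 3 each). It rose by 0.36, 0.32 and 0.30 on the log2 scale (edgeR adjusted p = 3.26e-07, 1.11e-06 and 2.96e-06). PSMD6-AS2, an antisense gene at 0.749 ± 0.174 CPM with mtAsn-2 and 1.48 ± 0.155 in control, fell by 0.97 with mtAsn-2 (edgeR adjusted p = 0.000476), and PSMG3-AS1 rose by 0.30 with mtLys (0.0138). Exons of PSMG3-AS1 share 17 of the 1445 exon bases of PSMG3, and PSMD6-AS2 is not among the genes that share exon bases with PSMD6. The counting is not stated to use the strand, so reads of shared bases cannot be told apart.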
